A study of Mus with 2 samples.

Results

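*Vegfa*, which encodes the ligand VEGF-A, stood at 3167 CPM (UMIs in every 1000000 UMIs of a cell class) in the adipocyte-like nuclei of control interscapular brown adipose tissue (iBAT) and at 1499 in those of the library labelled *Wtap*-BKO. The VEGF receptors *Flt1*, *Kdr* and *Flt4*, the angiopoietin receptor *Tek* and the ligand *Pdgfb* were read mainly in endothelial-like nuclei, *Angpt1* mainly in adipocyte-like nuclei, and *Pdgfrb* mainly in pericyte-like nuclei. These genes, with *Vegfb* and *Angpt2*, are the 10 ligands and receptors of VEGF, angiopoietin and PDGF signalling examined here, out of 32285 genes listed. They were taken as a list, and their levels were read in each cell class of both libraries, with the classes set by other genes.

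The data are single-nucleus RNA-seq of frozen iBAT from chow-fed C57BL/6 mice at 8 weeks of age. WTAP is a component of the m6A methyltransferase complex. Control mice carried *Wtap* flox/flox alone, and *Wtap*-BKO animals had in addition *Ucp1*-iCre, which expresses Cre where *Ucp1* is expressed, that is in brown adipocytes. Both groups therefore carry the floxed alleles, and those of the other cell classes are not targeted. Each group is 1 library pooled from 4 mice, so there is no replicate and no test between genotypes. Every interval given is an exact 95% interval for counting error and holds nothing of the variation from mouse to mouse.

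VEGF-A binds VEGFR1 (*Flt1*) and VEGFR2 (*Kdr*) on endothelial cells, and VEGFR2 carries most of its signal for endothelial growth, while VEGFR1 binds tightly and signals weakly. VEGFR3 (*Flt4*) is the receptor of lymphatic endothelium. Angiopoietin 1 activates TIE2 (*Tek*) and steadies vessels, and angiopoietin 2 counters it in many settings. PDGF-BB (*Pdgfb*) released by endothelial cells recruits pericytes through PDGFRβ (*Pdgfrb*). Brown fat is densely supplied with capillaries, and brown adipocytes are a known source of VEGF-A.

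The control library held 9494 nuclei with 10770604 UMIs (median 954 per nucleus), and the library labelled *Wtap*-BKO 8772 nuclei with 13945673 UMIs (median 1306). Mitochondrially encoded transcripts were 7.60% and 11.7% of all UMIs, and 33.0% and 74.8% of nuclei had over 5% of them. The libraries shared 20 barcodes, of which 0 had identical counts. In adipocyte-like nuclei *Wtap* itself stood at 50.3 and 48.3 CPM (log2 ratio -0.06, interval -0.27 to 0.15). These are 3′ counts and need not cover the floxed exon, so they do not check the label. The classes were adipocyte-like (6741 control nuclei and 4921 of the library labelled *Wtap*-BKO), endothelial-like (1172 and 835), pericyte-like (440 and 209), fibroblast-like (282 and 495), macrophage-like (289 and 1115), T-cell-like (116 and 749), B-cell-like (12 and 60) and Schwann-like (22 and 15). A group of 420 and 373 nuclei led by mitochondrial transcripts was left unnamed. All 12 endothelial markers and all 10 pericyte markers passed in the clusters given those names, though the names rest on these same markers. Under that rule clusters 0, 1, 2 and 11 passed at most 1 of the 12 adipocyte markers. They were named adipocyte-like because 9 to 11 of these markers were at least 1.5-fold above the clusters with other names. The summed adipocyte markers of adipocyte-like nuclei were 15007 and 15203 CPM. Endothelial-like nuclei came mostly from cluster 4 in the control library (68.9% of the class) and from cluster 5 in the library labelled *Wtap*-BKO (68.4%), so that the class is given by cluster number as well. The largest share of adipocyte-like nuclei lay in cluster 0 in the control library (39.9%) and in cluster 2, led by mitochondrial transcripts, in the other (32.5%). The leading genes of cluster 0 included the muscle gene *Ttn*, which had a UMI in 0.372% and 0.725% of its nuclei.

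**Figure D1:**
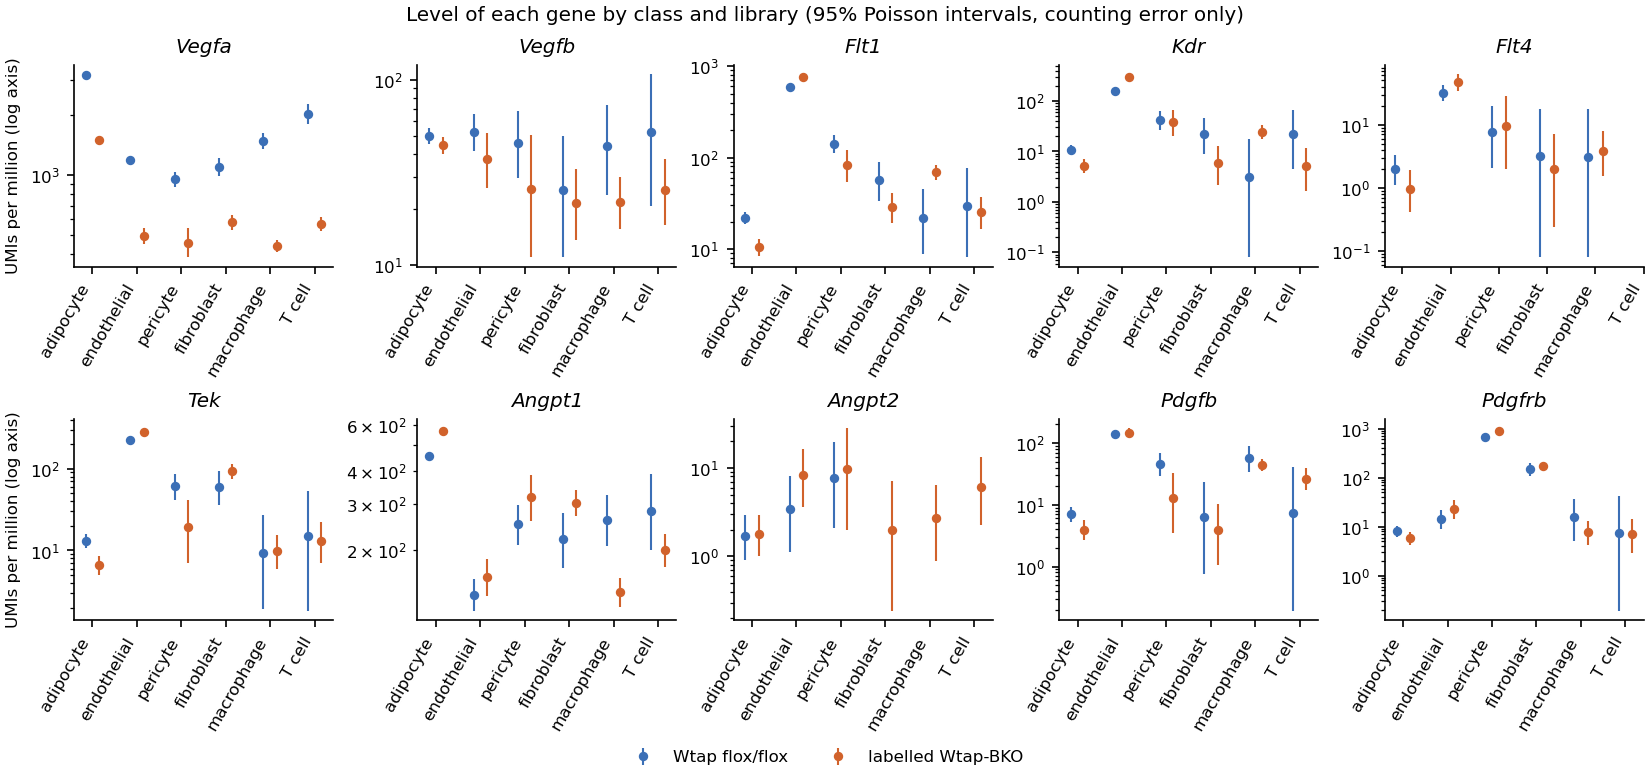
Level of each of the 10 genes in 6 classes, in CPM (UMIs per 1000000) on a log axis, 1 point per class and library with exact 95% intervals of the counts and no point where a class had 0 UMIs. *Vegfa* and *Angpt1* are highest in adipocyte-like nuclei, *Flt1*, *Kdr*, *Flt4*, *Tek* and *Pdgfb* in endothelial-like nuclei, and *Pdgfrb* in pericyte-like nuclei, in both libraries.

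Over each class, the ratio of the library labelled *Wtap*-BKO to control was taken for every gene whose UMIs, summed over both libraries, reached 20, and 2-fold was used as a size for counting. In adipocyte-like nuclei 4 of the 10 genes were past 2-fold, *Vegfa*, *Flt1*, *Kdr* and *Flt4*, all lower, against 18.9% of all 14080 genes past 2-fold in either direction and 4.22% lower. In endothelial-like nuclei 1 of 9 genes with enough UMIs was past 2-fold, *Vegfa*, again lower, against 16.7% of 9764 genes and 1.62% lower. In pericyte-like nuclei 3 of 8 were past 2-fold, *Vegfa*, *Tek* and *Pdgfb*, all lower, against 12.3% of 6589 genes and 4.22% lower. Here *Tek* (32 and 6 UMIs) and *Pdgfb* (24 and 4) reached 20 UMIs through the control library, where they were higher. *Flt4* in adipocyte-like nuclei had 15 and 8 UMIs and an interval that held 0 (-2.49 to 0.29). The counts are therefore a description and are not read as an excess. *Angpt2* had too few UMIs in endothelial- and pericyte-like nuclei, and *Flt4* in pericyte-like nuclei. The median log2 ratio of the counted genes was -0.91, 0.31 and -0.80 in these 3 classes, beside 0.07, 0.33 and 0.12 over all genes. All of these other than *Vegfa* are genes read mainly in endothelial-like nuclei, and their levels in adipocyte- and pericyte-like nuclei are set beside the summed endothelial markers further on.

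**Figure D2:**
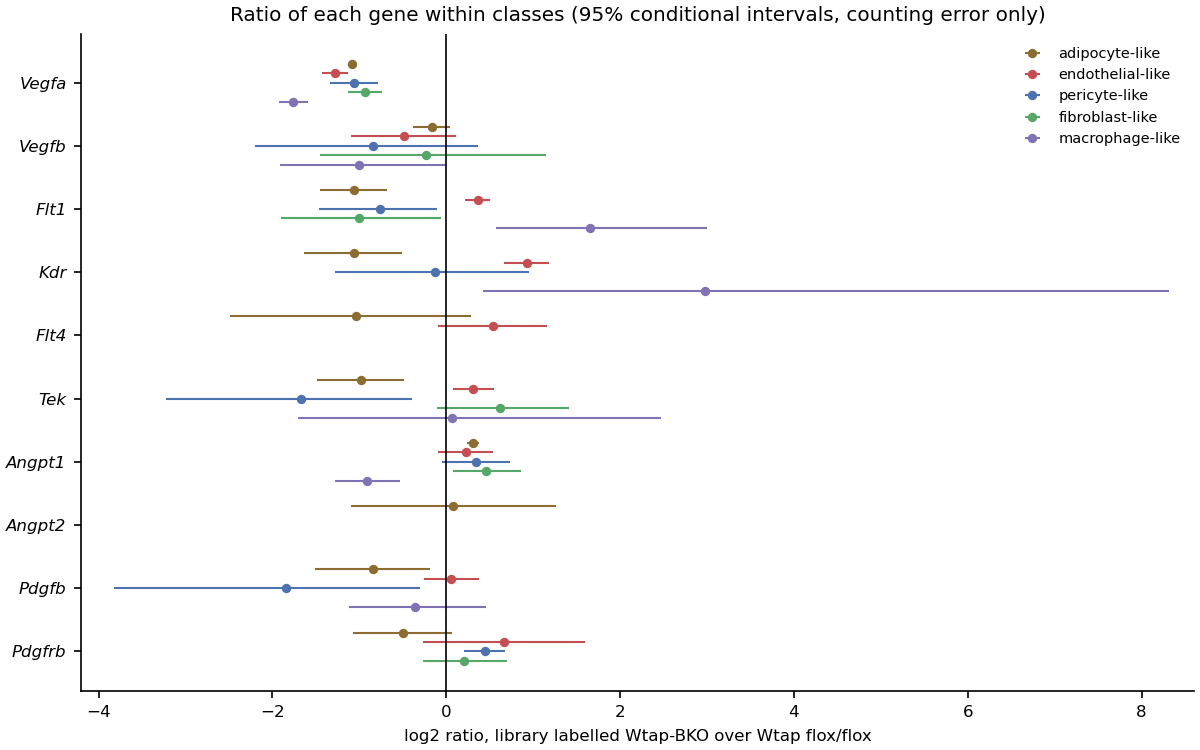
Log2 ratio (the library labelled *Wtap*-BKO over control) for each gene in adipocyte-, endothelial-, pericyte-, fibroblast- and macrophage-like nuclei, with exact 95% intervals of the counts, a line at 0 and no point under 20 UMIs. *Vegfa* is lower in every class shown, while *Flt1* and *Kdr* are above 0 in endothelial- and macrophage-like nuclei and below 0 in adipocyte-like nuclei.

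*Vegfa* (chromosome 17, 46016993 to 46032377, mm10) was read mostly from adipocyte-like nuclei, which held 86.7% of its UMIs in the control library and 82.0% in the library labelled *Wtap*-BKO. There it stood at 3167 CPM (3127 to 3207, 24055 UMIs) and 1499 (1473 to 1526, 12488 UMIs), a log2 ratio of -1.08 (-1.11 to -1.05). Of all genes counted in the class, 3.44% had a ratio as low or lower. With each nucleus thinned to 1000 UMIs, 93.6% of 3289 control nuclei and 75.2% of 3834 nuclei of the library labelled *Wtap*-BKO had a *Vegfa* UMI. These shares leave out 3452 and 1087 shallower nuclei, and were 92.3% and 83.6% without thinning.

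The lower level was seen in every adipocyte-like cluster. In cluster 0 *Vegfa* stood at 3356 and 1610 CPM (log2 ratio -1.06), in cluster 1, led by *Lncbate10* and *Ppargc1a* among others, at 3301 and 1511 (-1.13), and in the mitochondrial-led cluster 2 at 2732 and 1249 (-1.13). Cluster 11, led by interferon-induced genes such as *Gbp2* and *Ifit1*, had 3193 and 1549 (-1.04). Cluster 9, led by *Slc7a10* and *Cyp2e1*, had 2626 and 1849, the smallest difference of the 5 clusters (-0.51, interval -0.63 to -0.38). The order of the libraries was the same in all 5, and the interval of cluster 9 did not overlap those of the other 4.

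Median mitochondrial share was 2.96% and 9.83% in adipocyte-like nuclei of the 2 libraries, and from 1% upward *Vegfa* was lower where that share was higher within each library. From 1 to 5% mitochondrial UMIs it stood at 3305 and 1712 CPM (log2 ratio -0.95), from 5 to 10% at 2970 and 1568 (-0.92), from 10 to 25% at 2397 and 1432 (-0.74), and above 25% at 1559 and 954 (-0.71). Below 1% there were 53 and 4 nuclei, at 3182 and 2272 (-0.49, interval -1.24 to 0.18). Nuclei of like mitochondrial share therefore still differed, by less than the class as a whole. By depth, the log2 ratio was -1.08 at 500 to 1000 UMIs per nucleus, -1.05 at 1000 to 2000 and -1.03 above 2000.

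**Figure D3:**
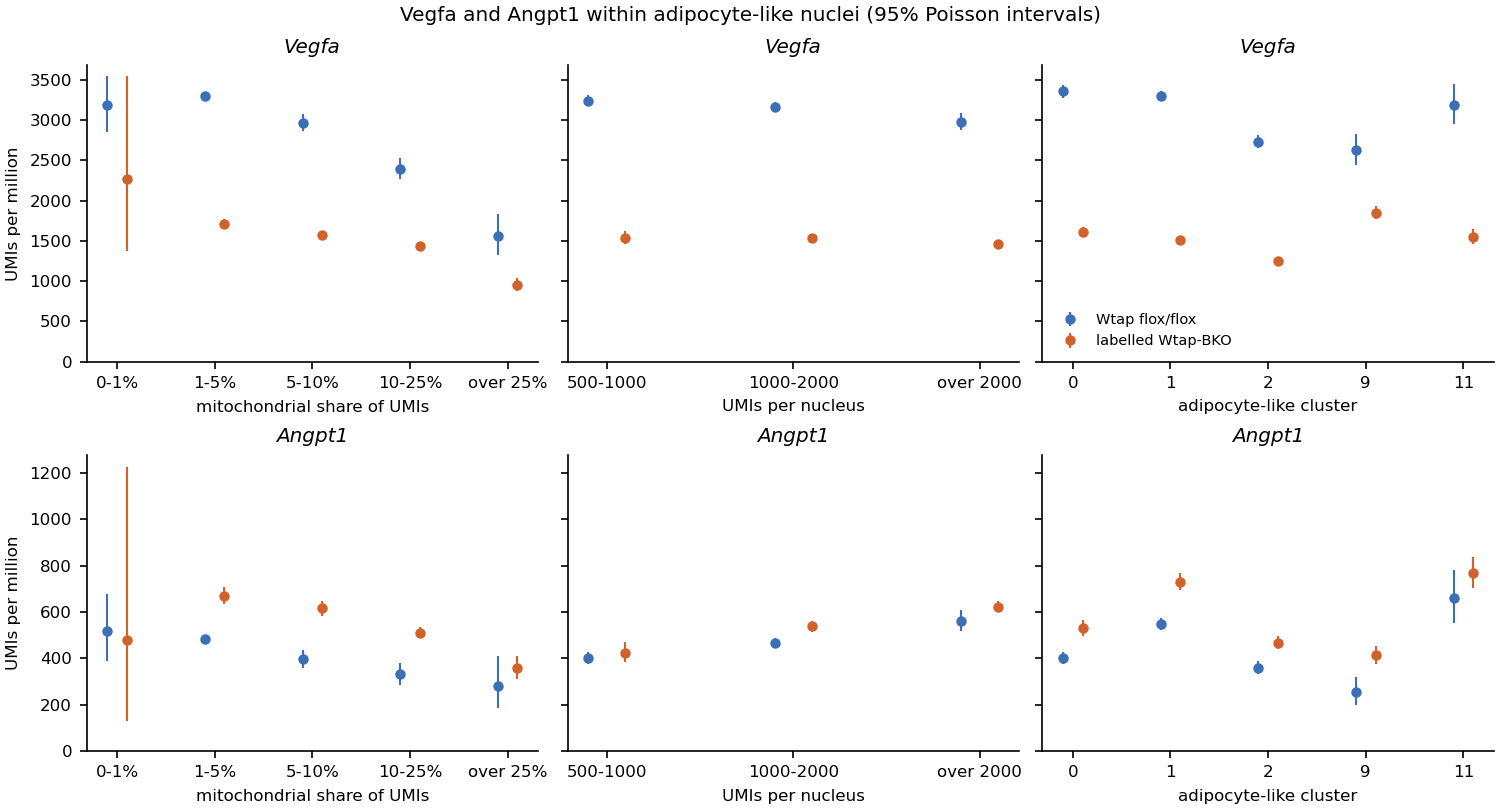
*Vegfa* and *Angpt1* in adipocyte-like nuclei, in CPM, by share of mitochondrial UMIs, by UMIs per nucleus and by cluster, with exact 95% intervals of the counts. *Vegfa* lies lower in the library labelled *Wtap*-BKO in every stratum plotted, among them cluster 9 (2626 against 1849) and cluster 1 (3301 against 1511). *Angpt1* lies higher in every stratum except nuclei under 1% mitochondrial UMIs.

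Outside adipocyte-like nuclei *Vegfa* was lower in the library labelled *Wtap*-BKO as well. It stood at 1187 and 490 CPM in endothelial-like nuclei (log2 ratio -1.28, interval -1.43 to -1.13), 949 and 455 in pericyte-like nuclei (-1.06, -1.34 to -0.79), and 1100.0 and 576 in fibroblast-like nuclei (-0.93, -1.13 to -0.74). Macrophage-like nuclei had 1480 and 437 (-1.76, -1.93 to -1.59), and T-cell-like nuclei 2030.0 and 565 (-1.84, -2.06 to -1.63). In the control library adipocyte-like nuclei had the highest level, then T-cell-like and macrophage-like nuclei, with endothelial- and fibroblast-like nuclei not separated by their interval. In the library labelled *Wtap*-BKO the other classes lay between 341 (15 Schwann-like nuclei, 7 UMIs) and 576 (fibroblast-like nuclei).

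Adipocyte markers were read in these classes too, and each level is therefore set beside theirs. As a percentage of the level in adipocyte-like nuclei, *Vegfa* and the 12 summed adipocyte markers were 64.1% and 64.1% in control T-cell-like nuclei, and 37.7% and 38.1% in those of the library labelled *Wtap*-BKO. In macrophage-like nuclei they were 46.7% and 48.4% in control, and 29.2% and 31.2% in the other library. In endothelial-like nuclei *Vegfa* was 37.5% against 48.5% for the markers in control, and 32.7% against 43.1% in the other library. In pericyte-like nuclei it was 30.0% against 38.5%, and 30.4% against 31.4%. Fibroblast-like nuclei had 34.7% against 35.0% in control, and 38.4% against 27.5% in the library labelled *Wtap*-BKO, the only pair of these 10 in which *Vegfa* lay well above the markers. In these classes *Vegfa*, other than in those fibroblast-like nuclei, was thus at or under the summed adipocyte markers. Single markers ranged widely, from 32.7% to 128% in control endothelial-like nuclei. The source of the *Vegfa* UMIs outside adipocyte-like nuclei was not tested. Thinned to 1000 UMIs, 89.5% of 57 control T-cell-like nuclei (interval 78.5 to 96.0) had a *Vegfa* UMI, and 32.2% of 366 of the library labelled *Wtap*-BKO (27.5 to 37.3). These shares leave out 59 and 383 shallower nuclei, and the medians of all T-cell-like nuclei were 987 and 985 UMIs.

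**Figure D4:**
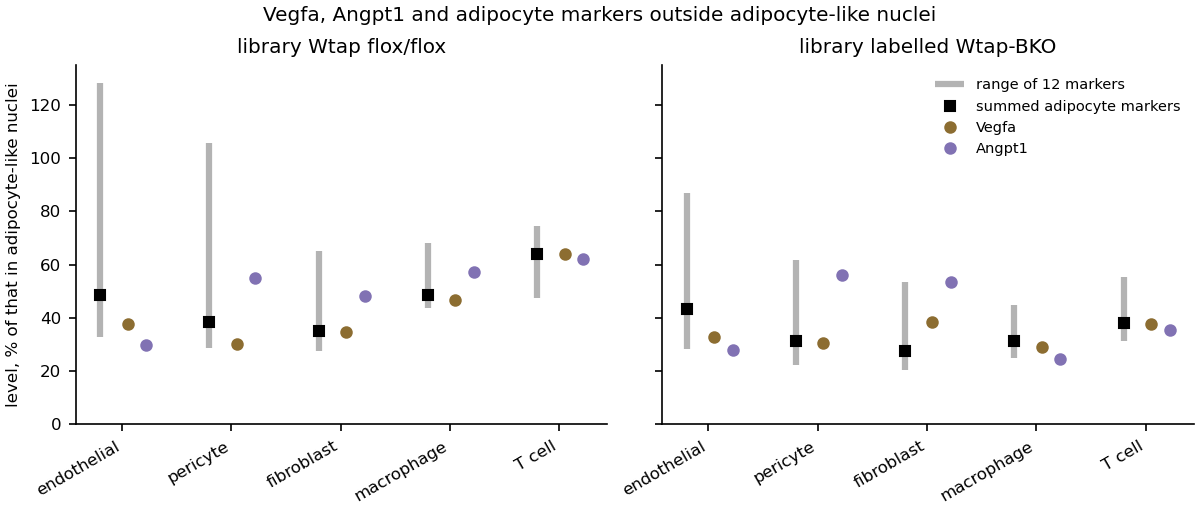
Level outside adipocyte-like nuclei as a percentage of the adipocyte-like level of the same library, for *Vegfa*, *Angpt1* and the 12 summed adipocyte markers. In T-cell-like nuclei *Vegfa* (64.1% and 37.7%) lies beside the summed markers (64.1% and 38.1%), while *Angpt1* in pericyte- and fibroblast-like nuclei lies above them.

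*Vegfb* (chromosome 19, 6982472 to 6987651), a VEGFR1 ligand, was read at 21.7 to 80.0 CPM in the classes of at least 50 nuclei. It stood at 49.9 and 44.4 CPM in adipocyte-like nuclei (379 and 370 UMIs, log2 ratio -0.17, interval -0.38 to 0.04) and at 52.1 and 37.3 in endothelial-like nuclei (76 and 36 UMIs, -0.48, -1.10 to 0.11). No neighbouring pair of classes in the order of its levels was separated by an interval in either library, but in the library labelled *Wtap*-BKO the adipocyte-like level (40.0 to 49.2) lay above those of macrophage-like (21.9, 15.7 to 29.9) and fibroblast-like nuclei (21.7, 13.6 to 32.9). The unnamed nuclei led by mitochondrial transcripts had the highest of these levels, 78.2 and 80.0. In the 5 adipocyte-like clusters its ratio ran from -0.38 in cluster 1 to 0.40 in cluster 11, and each interval held 0. *Vegfa* and *Vegfb* thus differed in adipocyte-like nuclei, where the interval of *Vegfb* did not reach that of *Vegfa*.

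The VEGF receptors were highest in endothelial-like nuclei in both libraries, and each lay above the next class, pericyte-like nuclei, beyond its interval. *Flt1* (chromosome 5, 147561604 to 147726438) stood at 588 and 755 CPM (857 and 728 UMIs, log2 ratio 0.36, interval 0.22 to 0.50), and 74.8% and 70.4% of its UMIs lay in this class. *Kdr* (chromosome 5, 75932827 to 75979072) stood at 158 and 301 (231 and 290 UMIs, 0.92, 0.67 to 1.18). *Flt4* (chromosome 11, 49609679 to 49652739) stood at 32.2 and 46.7 (47 and 45 UMIs, 0.53, -0.09 to 1.15). All 3 were higher in the library labelled *Wtap*-BKO over the pooled class, where the median of all genes was 0.33, and scaling by the median of ratios left *Flt1* at 0.028 and *Kdr* at 0.59.

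The pooled class mixes 2 clusters that carried the receptors at unlike levels. In cluster 4 (807 and 264 nuclei) the 12 endothelial markers summed to 2284 and 2205 CPM and the median mitochondrial share was 14.8% and 14.2%. In cluster 5 (365 and 571 nuclei) the markers summed to 6599 and 8158 and the mitochondrial share was 4.79% and 5.50%. *Flt1* was 447 and 312 in cluster 4 (log2 ratio -0.52, interval -0.78 to -0.26) and 1237 and 1229 in cluster 5 (-0.0084, -0.21 to 0.19). The higher pooled level of *Flt1* was thus seen in neither cluster. Cluster 4 was itself unlike between the libraries, with summed fibroblast markers at 170 and 970 CPM and summed macrophage markers at 121 and 501. In cluster 5 these were 254 and 557, and 262 and 372. Their part in the ratios by cluster and at control proportions was not tested. At resolution 1.0 the *Flt1* ratio of the class was 0.54. *Kdr* was 117 and 140 in cluster 4 (0.26, -0.17 to 0.69) and 351 and 473 in cluster 5 (0.43, 0.07 to 0.80), above 0 in both, with an interval above 0 in cluster 5. The summed endothelial markers had log2 ratios of -0.05 in cluster 4 and 0.31 in cluster 5, both inside the *Kdr* intervals. *Flt4* was 20.9 and 22.0 in cluster 4 (0.08) and 84.7 and 73.1 in cluster 5 (-0.21), on 25 and 11, and 22 and 34 UMIs. With clusters 4 and 5 held at their control proportions of UMIs the class ratio was -0.31 for *Flt1*, 0.33 for *Kdr* and -0.05 for *Flt4*. Relative to the summed endothelial markers of the class, 3052 and 5077 CPM with 12 of 12 higher, the ratios were -0.37, 0.19 and -0.20.

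**Figure D5:**
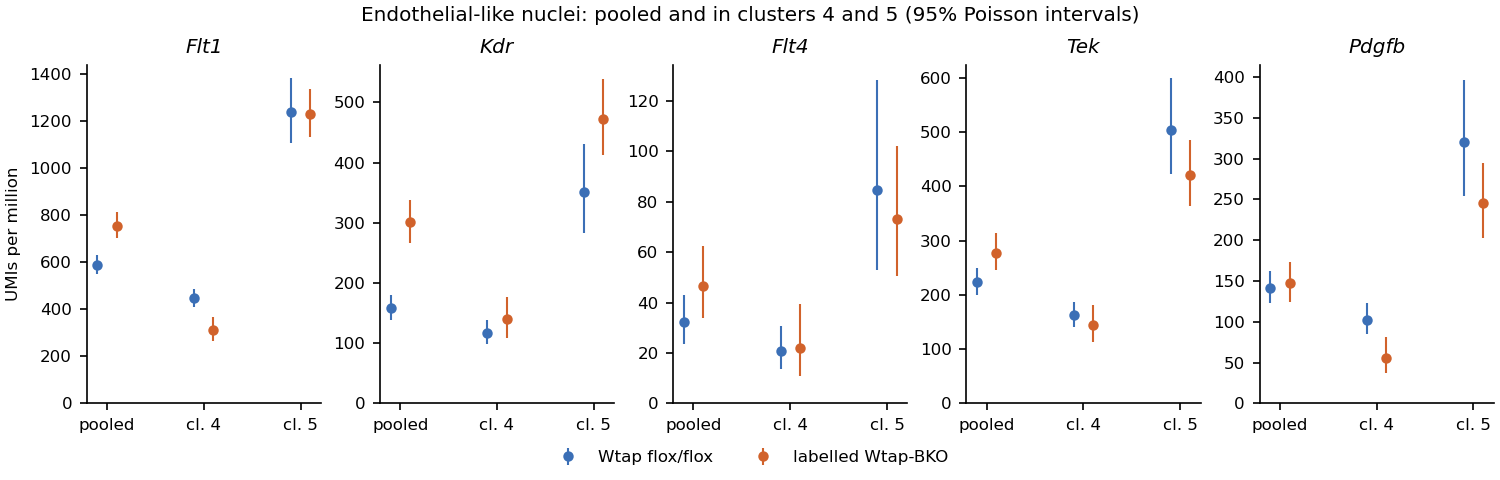
*Flt1*, *Kdr*, *Flt4*, *Tek* and *Pdgfb* in endothelial-like nuclei, pooled and in clusters 4 and 5 apart, in CPM on a linear axis from 0 with exact 95% intervals of the counts. All 5 genes stand higher in cluster 5 than in cluster 4 in both libraries, and cluster 5 is 31.1% of the class in control and 68.4% in the library labelled *Wtap*-BKO.

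Other cell types' markers were also higher in endothelial-like nuclei of the library labelled *Wtap*-BKO: the 10 fibroblast markers summed to 185 and 770 CPM, the 10 macrophage markers to 146 and 439 and the 10 T-cell markers to 59.7 and 186. Their part in the receptor values was not tested. Thinned to 1000 UMIs (495 and 276 nuclei, with 677 and 559 shallower nuclei left out), 34.3% and 39.9% of endothelial-like nuclei had a *Flt1* UMI (45.6% and 47.4% unthinned), 11.5% and 20.3% a *Kdr* UMI (15.8% and 26.9%), and 1.82% and 3.26% a *Flt4* UMI. Adipocyte-like nuclei, thinned likewise, had 2.04% and 0.887% for *Flt1* and 0.851% and 0.496% for *Kdr*, with median depths of 989 and 1477 UMIs against 876 and 798 in endothelial-like nuclei. *Flt1* and *Kdr* were found together in 5.05% and 9.78% of thinned endothelial-like nuclei, beside 3.95% and 8.09% from the product of their shares. Any of *Flt1*, *Kdr*, *Flt4* and *Tek* was found in 50.1% and 58.7%.

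*Flt4* was highest in the few nuclei with lymphatic markers. Only 4 and 8 endothelial-like nuclei had at least 2 of 6 lymphatic markers, and these held 9 of 47 and 11 of 45 of the *Flt4* UMIs of the class, at 1163 and 1185 CPM. Endothelial-like nuclei without any lymphatic marker had 26.5 and 37.6. The 6 lymphatic markers of the class summed to 31.6 and 73.6 CPM (log2 ratio 1.22), with 5 of 6 higher in the library labelled *Wtap*-BKO, and their part in the pooled *Flt4* ratio of 0.53 was not tested.

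Outside endothelial-like nuclei the VEGF receptors were mostly lower in the library labelled *Wtap*-BKO, on small counts. In adipocyte-like nuclei *Flt1* was 21.9 and 10.4 CPM (166 and 87 UMIs, log2 ratio -1.07, interval -1.46 to -0.68), *Kdr* 10.8 and 5.16 (82 and 43 UMIs, -1.06, -1.63 to -0.51), and *Flt4* 1.97 and 0.960 (15 and 8 UMIs, -1.04, -2.49 to 0.29). The 12 endothelial markers of the same nuclei summed to 144 and 95.9 (-0.58), with 1 of 12 higher. In pericyte-like nuclei *Flt1* was 142 and 83.3 (-0.76, -1.47 to -0.10), where the endothelial markers summed to 930 and 705 (-0.40). In fibroblast-like nuclei *Flt1* was 57.2 and 28.6 (-1.0, -1.90 to -0.06), where they summed to 299 and 305. Endothelial markers moved the same way in adipocyte- and pericyte-like nuclei, and their part in these values was not tested.

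Macrophage-like nuclei went the other way. *Flt1*, which monocytes are known to express, was read there as 7 UMIs in 289 control nuclei and 126 UMIs in 1115 nuclei of the library labelled *Wtap*-BKO, or 22.0 and 69.1 CPM (log2 ratio 1.65, interval 0.57 to 3.0). *Kdr* was 1 and 45 UMIs, or 3.14 and 24.7 (2.98, 0.42 to 8.31). The *Flt1* UMIs came from 7 and 84 nuclei, with at most 1 and 6 in a nucleus. Summed endothelial markers were lower in these nuclei, at 257 and 186 (-0.47). In macrophage-like nuclei with no endothelial marker at all *Flt1* was 16.8 and 61.8 (4 and 87 UMIs), and with the top doublet scores left out 15.0 and 77.0. The doublet calling had not worked, so the latter values do not check for doublets. As a percentage of the endothelial-like level, *Flt1* was 3.74% and 9.15% and *Kdr* 1.98% and 8.21%, while the summed endothelial markers were 8.43% and 3.66%. In control, both receptors lay under the summed markers, on 7 and 1 UMIs, and in the other library above them. The source of these UMIs was not tested in either library.

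At a finer resolution the macrophage-like nuclei divided into a macrophage-like and a dendritic-like group, and most of the receptor UMIs lay in the dendritic-like one. That group had 44 control nuclei and 469 of the library labelled *Wtap*-BKO. *Flt1* was 41.4 and 112 CPM there (2 and 96 UMIs) and 18.5 and 31.1 in the macrophage-like group (5 and 30 UMIs). *Kdr* was 0 and 43.3 in the dendritic-like group (0 and 37 UMIs) and 3.70 and 8.29 in the macrophage-like group (1 and 8 UMIs). The 0 *Kdr* UMIs of the control dendritic-like group allow a level of up to 62.1 at its depth, which is above the 43.3 of the other library, so that a difference within that group was not detectable at this depth.

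*Angpt1* (chromosome 15, 42424667 to 42676977), the agonist of TIE2, was read mostly from adipocyte-like nuclei, which held 86.3% and 81.5% of its UMIs. It stood there at 456 and 565 CPM (3466 and 4704 UMIs, log2 ratio 0.31, interval 0.24 to 0.37), a direction opposite to that of *Vegfa* in the same nuclei. Of all genes counted in the class, 63.1% had a ratio as low or lower, and the quartiles of all genes were -0.32 and 0.59. In cluster 0 it was 399 and 530 (0.41), in cluster 1 547 and 731 (0.42), in cluster 2 359 and 467 (0.38), in cluster 9 254 and 412 (0.70) and in cluster 11 658 and 768 (0.22, -0.05 to 0.51). All 5 clusters had the higher level in the library labelled *Wtap*-BKO, and only the interval of cluster 11 held 0. From 1 to 25% mitochondrial UMIs the ratio was 0.48, 0.64 and 0.63 in the 3 bands, and by depth it was 0.08 at 500 to 1000 UMIs (-0.09 to 0.26), 0.21 at 1000 to 2000 and 0.15 above 2000. These mitochondrial bands thus lay above the 0.31 of the class as a whole, and the depth bands below it. A UMI of *Angpt1* was found in 33.4% and 37.0% of adipocyte-like nuclei thinned to 1000 UMIs, and in 33.6% and 46.3% without thinning.

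Pericytes and fibroblasts are the usual sources of *Angpt1*, and both classes had it. Pericyte-like nuclei had 251 and 317 CPM (131 and 99 UMIs, log2 ratio 0.34, interval -0.05 to 0.73) and fibroblast-like nuclei 219 and 302 (69 and 306 UMIs, 0.46, 0.08 to 0.86). These were 54.9% and 56.2%, and 48.1% and 53.5%, of the adipocyte-like level, above the summed adipocyte markers (38.5% and 31.4%, and 35.0% and 27.5%). In endothelial-like nuclei *Angpt1* was 29.6% and 27.9% of that level, under the summed markers at 48.5% and 43.1%, and its source there was not tested. Macrophage-like nuclei had 260 and 138 (-0.91, -1.28 to -0.54), or 57.1% and 24.5% of the adipocyte-like level, beside 48.4% and 31.2% for the markers.

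*Angpt2* (chromosome 8, 18690263 to 18741562), made by endothelial cells that are being remodelled, was almost unread, with 22 and 40 UMIs in the whole libraries. Endothelial-like nuclei held 5 and 8 of these, or 3.43 and 8.29 CPM (log2 ratio 1.27, interval -0.52 to 3.23). Adipocyte-like nuclei held 13 and 15 and pericyte-like nuclei 4 and 3. A difference between the libraries was not detectable at this depth.

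*Tek* (chromosome 4, 94739086 to 94874976), the angiopoietin receptor, stood at 224 and 278 CPM in endothelial-like nuclei (326 and 268 UMIs, log2 ratio 0.31, interval 0.07 to 0.55), beside the median of 0.33 for all genes of the class and -0.020 under median-of-ratios scaling. By cluster it was lower, at 163 and 144 in cluster 4 (-0.17, -0.58 to 0.22) and 505 and 421 in cluster 5 (-0.26, -0.59 to 0.07), and -0.21 with the clusters at control proportions. Both cluster intervals held 0. In thinned endothelial-like nuclei 15.8% and 22.5% had a *Tek* UMI (22.3% and 23.4% unthinned), against 1.55% and 0.600% of adipocyte-like nuclei. *Flt1* and *Tek* were found together in 6.67% and 13.04%, beside products of 5.41% and 8.95%.

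Fibroblast-like nuclei came next for *Tek* in the library labelled *Wtap*-BKO, above pericyte-like nuclei beyond their interval, while in control the pair was not separated. They had 60.4 and 92.8 CPM (19 and 94 UMIs, log2 ratio 0.62, interval -0.10 to 1.41). As a percentage of the endothelial-like level this was 27.0% and 33.4%, where the summed endothelial markers were 9.79% and 6.01%. *Tek* of fibroblast-like nuclei thus exceeded the summed markers in both libraries. It lay above 11 of the 12 single markers, the highest of which was at 49.1% and 35.7%. Pericyte-like nuclei had 61.2 and 19.2 (32 and 6 UMIs, -1.67, -3.22 to -0.39), where the endothelial markers summed to 930 and 705 (-0.40), and adipocyte-like nuclei 13.03 and 6.60 (-0.98, -1.48 to -0.49).

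*Pdgfb* (chromosome 15, 79995865 to 80024614), the ligand that endothelial cells make for pericytes, stood at 141 and 147 CPM in endothelial-like nuclei (206 and 142 UMIs, log2 ratio 0.06, interval -0.26 to 0.37). Within clusters it was lower in the library labelled *Wtap*-BKO, at 103 and 56.1 in cluster 4 (-0.87, -1.52 to -0.27) and 320 and 245 in cluster 5 (-0.38, -0.80 to 0.04). With the clusters at control proportions the ratio was -0.66, and relative to the summed endothelial markers -0.67. Macrophage-like nuclei came next, with 56.5 and 43.9 (18 and 80 UMIs), or 40.0% and 29.8% of the endothelial-like level where the summed endothelial markers were 8.43% and 3.66%. In macrophage-like nuclei without an endothelial marker *Pdgfb* was 54.6 and 47.6. Pericyte-like nuclei had 45.9 and 12.8 (24 and 4 UMIs, -1.84, -3.83 to -0.30), where the summed endothelial markers were 930 and 705 (-0.40). Their part in the *Tek* and *Pdgfb* values was not tested.

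*Pdgfrb*, the pericyte receptor for PDGF-BB, stood at 666 and 904 CPM in pericyte-like nuclei (348 and 282 UMIs, log2 ratio 0.44, interval 0.21 to 0.67), above fibroblast-like nuclei in both libraries. The 10 pericyte markers of these nuclei summed to 3925 and 4174 (0.09), and the 7 smooth muscle markers to 239 and 673 (1.49); the part of the latter in the *Pdgfrb* value was not tested. By mitochondrial share the *Pdgfrb* ratio was 0.42 at 1 to 5%, 0.59 at 5 to 10%, 0.06 at 10 to 25% and 1.18 above 25%, and by depth 0.53, 0.45 and 1.17. Thinned to 1000 UMIs (161 and 105 nuclei), 42.9% and 60% had a *Pdgfrb* UMI, against 0.638% and 0.574% of adipocyte-like nuclei. The direction depended on how the class was drawn: where each nucleus was classed by its own markers without clustering, the pericyte-like nuclei were 428 and 371, of which 317 and 152 were in the class above, and the ratio was -0.92 (-1.18 to -0.66). Fibroblast-like nuclei had 149 and 172 (47 and 174 UMIs, 0.20, -0.27 to 0.70), and held 9.51% and 31.5% of all *Pdgfrb* UMIs, against 70.4% and 51.0% in pericyte-like nuclei.

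Over whole libraries *Flt1*, *Tek* and *Pdgfrb* were lower in the library labelled *Wtap*-BKO, unlike in their own classes, while the interval of *Kdr* held 0, and in whole-library values fewer nuclei of a class and less RNA per nucleus cannot be told apart. Endothelial-like nuclei were 12.3% and 9.52% of nuclei and 13.5% and 6.92% of UMIs, and pericyte-like nuclei 4.63% and 2.38% of nuclei. *Flt1* was 106 and 74.1 CPM over all nuclei (log2 ratio -0.52) and *Kdr* 33.0 and 29.0 (-0.18, interval -0.39 to 0.03). Without nuclei over 5% mitochondrial UMIs the direction turned, to 0.73 for *Flt1*, 0.73 for *Kdr*, 0.64 for *Tek* and 0.76 for *Pdgfrb*. That limit left out 33.0% and 74.8% of nuclei, and unevenly by class. Median mitochondrial shares were 2.96% and 9.83% in adipocyte-like, 9.22% and 6.47% in endothelial-like and 3.93% and 5.11% in pericyte-like nuclei. The part of the changed class make-up in the turn was not tested. With each class held at its control share of UMIs, the ratios were 0.15 for *Flt1* and 0.53 for *Kdr*, 0.03 for *Tek* (-0.48 over all nuclei), -0.17 for *Pdgfb* (-0.45) and 0.31 for *Pdgfrb* (-0.21). *Vegfa* was -1.24 over all nuclei, the only one of the 10 genes past 2-fold there, against 22.6% of 16290 genes past it in either direction and 2.81% lower, and -1.10 at control shares. *Angpt1* was 0.15 and 0.29.

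Other ligands and receptors of these families form a list of 12 genes, of which 10 had enough UMIs in adipocyte-like nuclei. Of these 3 were past 2-fold and higher (14.7% of all genes in the class were), and none lower, with a median of 0.18 beside 0.07 for all genes. *Pdgfa* (9.48 and 33.6 CPM, log2 ratio 1.83) and *Pdgfc* (12.5 and 30.98, 1.31), which encode PDGF chains, were 2 of the 3, and *Vegfc*, a VEGFR3 ligand, was read there as 8 and 21 UMIs (1.26). The co-receptors *Nrp1* (568 and 505, -0.17) and *Nrp2* (564 and 285, -0.98) were both well read in adipocyte-like nuclei, and *Pdgfd*, another PDGFRβ ligand, was 322 and 238 (-0.44). In endothelial-like nuclei 4 of 9 were past 2-fold, all higher (15.1% of all genes were), with a median of 0.67 beside 0.33. All 4 rested on few UMIs: *Pgf*, a VEGFR1 ligand, on 5 and 17, *Pdgfra* on 2 and 21, *Pdgfa* on 8 and 15 and *Vegfc* on 14 and 24. *Pdgfra* is a fibroblast receptor, and the summed fibroblast markers moved with it as given above. *Nrp1* was 499 and 654 (0.39) in endothelial-like nuclei, *Ptprb*, the phosphatase that acts on TIE2, 415 and 658 (0.67), and *Tie1*, the partner of TIE2, 167 and 177 (0.08). At control proportions of clusters 4 and 5 these 3 became 0.05, 0.07 and -0.47. In pericyte-like nuclei 1 of 7 was past 2-fold and higher, *Vegfc* (1.16), against 8.06% of all genes, and the median was -0.16 beside 0.12.

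The regulators of the hypoxia response, which control *Vegfa* transcription in many tissues, form a list of 9 genes. In adipocyte-like nuclei 8 had enough UMIs, 1 was past 2-fold and higher and none lower, where 14.7% of all genes were higher and 4.22% lower, and the median was 0.31 beside 0.07. A share of 1 in 8 is near that of all genes. *Hif1a*, which encodes HIF-1α, was 55.6 and 62.6 CPM (0.17, -0.02 to 0.36) and *Epas1*, which encodes HIF-2α, 165 and 148 (-0.16). Among the prolyl hydroxylases that mark them for decay, *Egln1* was 154 and 82.2 (-0.90), *Egln2* was 52.0 and 76.5 (0.56) and *Egln3* was 5.13 and 10.9 (1.09), and *Vhl*, which targets them, was 9.74 and 17.0 (0.81). In endothelial-like nuclei 2 of 7 were past 2-fold, both higher (15.1% of all genes were), with a median of 0.38 beside 0.33, and in pericyte-like nuclei 0 of 5 (12.3% of all genes were, in either direction), with a median of 0.45 beside 0.12 and 3 of 5 intervals above 0. *Hif1a* was 26.1 and 61.2 in endothelial-like nuclei (38 and 59 UMIs, 1.23).

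Among 10 known targets of hypoxia-inducible factors, 7 had enough UMIs in adipocyte-like nuclei, 3 were past 2-fold and higher (14.7% of all genes) and 1 lower (4.22%), and the median was 0.95 beside 0.07 for all genes. *Egln3* stands on both lists, so that it was 1 of these 3 (1.09) and also the 1 regulator past 2-fold above. The glucose transporter gene *Slc2a1* was 1.71 and 5.76 CPM (13 and 48 UMIs, log2 ratio 1.75), *Ldha*, for lactate dehydrogenase, 97.4 and 188 (0.95), *Pdk1*, an inhibitor of pyruvate dehydrogenase, 45.0 and 81.6 (0.86), *Ndrg1* 2.63 and 7.80 (1.57) and *Pgk1*, of glycolysis, 71.0 and 74.7 (0.07). The mitophagy receptor gene *Bnip3* was 427 and 191 (-1.17), and was the only member of the list lower past 2-fold, as *Vegfa* was. In endothelial-like nuclei 1 of 5 was past 2-fold and higher, *Ndrg1* (1.52), against 15.1% of all genes, and the median was 0.48 beside 0.33. In pericyte-like nuclei 0 of 4 were past 2-fold, against 12.3% of all genes in either direction, with a median of -0.18 beside 0.12.

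A further list of 12 genes of endothelial responses to VEGF held 9 with enough UMIs in endothelial-like nuclei, of which 3 were past 2-fold, all higher (15.1% of all genes were), with a median of 0.67 beside 0.33. These were the early-response genes *Nr4a1* (75.5 and 235 CPM, log2 ratio 1.64) and *Egr3* (10.98 and 40.4, 1.88) and the apelin receptor gene *Aplnr* (11.7 and 24.9, 1.09), which at control proportions of clusters 4 and 5 were 1.61, 1.39 and 0.73. *Notch1* was 89.9 and 169 (0.91) and its ligand gene *Dll4* 24.7 and 39.4 (0.67). *Foxo1*, which restrains endothelial growth, was 348 and 216 (-0.69), and *Nos3*, for endothelial nitric oxide synthase, 87.1 and 88.1 (0.02, and -0.59 at control proportions). The tip cell gene *Esm1* had 0 UMIs in endothelial-like nuclei of both libraries, which allows up to 2.06 and 3.11 CPM there, and 0 and 2 UMIs over all nuclei. These genes are not specific to endothelium. In adipocyte-like nuclei 5 of 9 were past 2-fold and higher (14.7% of all genes) and 1 lower (4.22%), with a median of 1.59 beside 0.07, among them *Nr4a1* (80.6 and 341, 2.08), *Notch1* (44.1 and 133, 1.59) and, lower, *Foxo1* (926 and 392, -1.24). In pericyte-like nuclei *Nr4a1* was 70.8 and 561 (2.99), 2 of 6 were past 2-fold and higher (8.06% of all genes) and 1 lower (4.22%), and the median was -0.18 beside 0.12.

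The genes with patterns most like those of the 10 genes were found by the Pearson correlation of log2(CPM + 10) over 15 points, the classes of at least 50 nuclei in each library, among 10209 genes with at least 200 UMIs. These points share 2 libraries and their depth, so the values are descriptions. For *Vegfa* they were *A530065N20Rik* (0.99), *Slc25a42* (0.99) and *Aspg* (0.98), and for *Angpt1* *Ctdspl* (0.98), *Adcy3* (0.93) and *Dpyd* (0.91). For *Flt1* they were *Kank3*, *Gpr4* and *Ccdc85a* (each 0.96), for *Kdr* *Ccdc85a*, *Arhgef15* and *Rbp7* (each 0.95), for *Tek* *Sema6a*, *Fat4* and *Meox2* (0.95 to 0.94), and for *Pdgfb* *Zfp366* (0.96), *Cd93* (0.94) and *Ahr* (0.93). *Pdgfrb* was most like *Agtr1a* (0.99), *Prkg1* (0.98) and *Aspn* (0.98), and *Vegfb* was most like *Micos13* (0.93), *Atp5f1* (0.91) and *Atp5d* (0.90), of mitochondria. *Flt4* and *Angpt2* had too few UMIs for this search.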

How the data were processed

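Single-nucleus RNA-seq libraries (10x Genomics 3′ v3.1) of *Wtap* flox/flox and *Wtap*-BKO iBAT, 1 per genotype and 4 mice pooled in each, were analysed from the deposited filtered matrices. The authors deposited raw UMI counts per gene and nucleus, made with cellranger 5.0.0 according to the file header, and the submitters' processing notes name mm10, Trimmomatic, FastQC, Cell Ranger and Seurat. Every barcode held at least 500 UMIs, the minimum of the study's methods, so no further filter was set.

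Following those methods, nuclei were log-normalised, integrated by canonical correlation analysis (2000 variable features, 20 PCs) and clustered at resolution 0.5 into 14 clusters with Seurat 5.3.0 (R 4.3.3). The 10 genes and the companion lists were kept out of the variable features. Clusters were named from marker lists. The rule for adipocyte clusters was changed after the data were seen, because the *Slc7a10* cluster was first taken for pericyte-like: adipocyte markers competed by the share that passed, and only clusters with another name served as reference. Rebuilt names can differ from those of the study. Scrublet, run through scanpy 1.11.5, called 3 and 0 doublets and had not worked, so none were removed, and an alternative left out the 721 and 616 nuclei of highest score.

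UMIs were summed by class and library as CPM, with exact Poisson intervals for levels, exact conditional intervals for ratios and exact Clopper-Pearson intervals for shares, all at 95% and for counting error only (numpy 2.4.6, scipy 1.17.1, pandas 2.3.3). With 0 UMIs, 3 UMIs were taken as the limit. The ratio code was tested on simulated data. Levels were not compared between genes, since 3′ counts are not per length. Named were the 10 genes, the companion lists and, for each of the 10 with at least 200 UMIs, the 3 genes of most similar pattern. The genes and lists were chosen with earlier results of these data known. Gene positions come from RefSeq for GRCm38.p6, the assembly of mm10, by symbol. Antisense and overlapping genes were not separated further. Alternatives covered depth, mitochondrial share, doublets, the denominator, scaling, clustering and the marker rule.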

Additional observations from a re-analysis of the deposited data

Results flagged for a closer look

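Several genes had ratios of opposite sign in different classes, each with an interval of the counts clear of 0. With 1 library per genotype these differences between classes were not tested. *Flt1* had a log2 ratio of 0.36 in endothelial-like and 1.65 in macrophage-like nuclei, against -1.07 in adipocyte-like, -0.76 in pericyte-like and -1.0 in fibroblast-like nuclei. *Kdr* had 0.92 in endothelial-like and 2.98 in macrophage-like nuclei (1 control UMI), against -1.06 in adipocyte-like nuclei. Of macrophage-like nuclei, 44 of 289 in control and 469 of 1115 in the other library were dendritic-like at the finer resolution. Within these groups the intervals of the *Flt1* levels overlapped, at 5.01 to 149 and 90.9 to 137 CPM (dendritic-like) and 6.00 to 43.1 and 21.0 to 44.4 (macrophage-like). The part of this make-up in the macrophage-like ratios was not tested. For *Tek* the values were 0.31 in endothelial-like nuclei against -0.98 in adipocyte-like and -1.67 in pericyte-like nuclei. *Angpt1* stood at 0.31 in adipocyte-like and 0.46 in fibroblast-like nuclei against -0.91 in macrophage-like nuclei. Summed endothelial markers had 0.73 in endothelial-like nuclei, -0.58 in adipocyte-like, -0.40 in pericyte-like and -0.47 in macrophage-like nuclei, and summed adipocyte markers -0.61 in macrophage-like nuclei. The part of these in the opposite signs was not tested. Within clusters 4 and 5 the endothelial values were -0.52 and -0.0084 for *Flt1* and -0.17 and -0.26 for *Tek*. Of these, only *Flt1* in cluster 4 had an interval clear of 0. *Flt1* and *Tek* were also below 0 with the clusters at control proportions (-0.31 and -0.21) and relative to summed endothelial markers (-0.37 and -0.42). The opposite sign of their endothelial values thus rests on the pooled class. Fibroblast and macrophage markers of cluster 4 differed between the libraries, as given above, and their part in the cluster values was not tested.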

How the results depend on the processing

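No paired analysis was possible because each genotype is 1 library, and no replicate could be left out. Of 100 alternative values for *Vegfa* and *Vegfb* in adipocyte-like, *Flt1*, *Kdr*, *Flt4*, *Tek* and *Pdgfb* in endothelial-like, and *Angpt1* and *Pdgfrb* in pericyte-like nuclei, 69 moved by less than their counting interval and 21 by more. The remaining 10, of *Flt1*, *Tek* and *Pdgfrb*, turned sign where the main interval was clear of 0. The 69 and 21 hold further changes of sign, of *Flt4* and *Pdgfb*, whose main intervals held 0. *Flt4* kept its sign in 8 of 12 alternatives and *Pdgfb* in 5 of 12.

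*Vegfa* stayed lower in adipocyte-like nuclei, at -0.95 without nuclei over 5% mitochondrial UMIs, -0.97 with mitochondrial UMIs out of the denominator, -1.15 under median-of-ratios scaling and, added after the data were seen, -1.03 without the mitochondrial-led cluster. *Angpt1* stayed higher there over 11 alternatives, at 0.23 to 0.47, while the ratios within bands of depth, given above, all lay under that range. In B-cell-like nuclei *Vegfa* turned to 0.091 at a minimum of 1000 UMIs.

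Without nuclei over 5% mitochondrial UMIs the values over all nuclei turned, to 0.73 for *Flt1*, 0.73 for *Kdr*, 0.64 for *Tek*, -0.011 for *Angpt1*, 0.81 for *Pdgfb* and 0.76 for *Pdgfrb*. The limit left out the classes unevenly, as given above, so these values also hold a changed class make-up. In endothelial-like nuclei the same limit gave -0.33 for *Flt4*, 0.49 for *Pdgfb*, -0.53 for *Rcan1* and -0.27 for *Vegfc*, and in adipocyte-like nuclei 0.036 for *Arnt* and 0.048 for *Epas1*. Median-of-ratios scaling gave 0.028 for *Flt1*, 0.59 for *Kdr*, -0.020 for *Tek* and -0.27 for *Pdgfb* in endothelial-like nuclei, and -0.065 for *Angpt1* over all nuclei. *Flt1* was 0.54 at resolution 1.0. *Pdgfrb* in pericyte-like nuclei was 0.72 without the highest doublet scores and -0.92 with classes from markers in each nucleus, which also turned *Hif1a* to -0.16 and *Vegfc* to -0.47 there.

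Settings added after the data were seen concern endothelial-like nuclei. At control proportions of clusters the values were *Flt1* -0.31, *Kdr* 0.33, *Tek* -0.21 and *Pdgfb* -0.66, and relative to summed markers *Flt1* -0.37, *Kdr* 0.19, *Flt4* -0.20, *Tek* -0.42 and *Pdgfb* -0.67. Cluster 4 alone gave *Flt1* -0.52, *Kdr* 0.26, *Tek* -0.17 and *Pdgfb* -0.87, and cluster 5 alone *Flt1* -0.0084, *Kdr* 0.43, *Flt4* -0.21, *Tek* -0.26 and *Pdgfb* -0.38. The cause of these changes was not tested.

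The share of all genes past 2-fold moved with the minimum of UMIs, to 12.3% in adipocyte-like nuclei at 100 UMIs, to 29.0% and 9.25% in endothelial-like nuclei at 1 and 100 UMIs, and to 24.2% and 6.11% in pericyte-like nuclei. Depth limits *Angpt2*, *Flt4* and every receptor outside its own class.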

Other observations

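Arterial and venous markers divided few endothelial-like nuclei. At least 2 of 6 arterial markers were found in 32 control nuclei and 20 of the library labelled *Wtap*-BKO, where *Flt1* stood at 612 and 574 CPM and *Tek* at 274 and 191. At least 2 of 5 venous markers were found in 7 and 18 nuclei, where *Flt1* stood at 473 and 422 and *Kdr* at 39.4 and 86.9. None of these ratios had an interval clear of 0.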
